A study of Mus musculus with 6 samples.

Results

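The data describe 37 mouse genes of cholesterol and fatty acid synthesis, chosen by name from a deposited table of 14868 genes. All 37 had a row, and all 37 passed the filter on low values. They comprise 5 regulators of the SREBP transcription factors, 18 enzymes of the route from acetyl-CoA to cholesterol (the sterol arm), 10 genes of fatty acid synthesis (the fatty acid arm), the sterol carrier Stard4, the sterol exporters Abca1 and Abcg1 and the nuclear receptor Nr1h2. The rule goes by gene name, and the names were chosen with earlier results of these data known.

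The libraries came from naïve CD4+ T cells, helper T cells that have not met antigen, of C57BL/6J background. There were 3 libraries of wild-type (WT) cells and 3 of Ikzf4-/- cells, which lack the gene of the Ikaros-family transcription factor Eos. The cells of all 6 libraries received the same treatment for 72 h, with plate-bound anti-CD3 (5 µg/mL) and anti-CD28 (2 µg/mL). They also received 10 ng/mL IL-4 and 10 µg/mL anti-Ifng, conditions that favour T helper 2 (Th2) cells. The labels give neither the age nor the sex of the mice nor how the allele was made, and do not say that the replicates were separate mice or cultures, so that the p-values measure only the spread between these libraries.

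As background, SREBP proteins are made as membrane-bound precursors and are held in the endoplasmic reticulum by SCAP and INSIG while sterols are plentiful. When sterols run low, SCAP carries them to the Golgi, where they are cut and released to activate genes, SREBP-2 mainly those of cholesterol synthesis and SREBP-1 mainly those of fatty acid synthesis. The oxysterol-sensing LXR receptors work in the opposite case, and raise the exporters Abca1 and Abcg1 as well as Srebf1 itself. T cells that begin to divide are known to switch on both synthesis routes to build membrane.

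The depth implied by the deposited values was 34701390 to 40604346 reads per library. Ikzf4 stood at 483 to 756 normalized reads in WT and 10.5 to 38.2 in Ikzf4-/- libraries, so each library matched its label. Below, values are the deposited normalized reads, given in the order of replicates 1, 2 and 3. The 5 CD4 T cell markers summed to 77647 to 80237 in WT and 77479 to 80804 in Ikzf4-/- libraries. Of 6 myeloid markers, 5 (Lyz2, Csf1r, Itgam, Adgre1 and Mpeg1) had no row, and Cd68 lay between 59.6 and 96.1 in WT and 69.3 and 89.0 in Ikzf4-/- libraries. No NK cell marker of 3 had a row, and of 5 B cell markers only Cd79a and Cd79b did, at a sum of 51.1 to 83.6 in WT and 58.6 to 90.4 in Ikzf4-/- libraries. The 2 CD8 markers summed to 236 to 423 and 232 to 374, and 5 division genes to 114538 to 119871 and 114334 to 116613, respectively. The sum of the 4 Th2 markers Gata3, Il4, Il5 and Il13 was 11978 to 13163 in WT and 8982 to 10313 in Ikzf4-/- libraries, without overlap. Gata3 made up most of each sum, and its own values overlapped. In the limma fit described below, Gata3 had a log2 fold change (Ikzf4-/- over WT) of -0.24 (limma adjusted p = 0.146). Il4 had -0.87 (0.0144), Il13 -0.82 (0.0450) and Il5 -1.24 (0.0529). The part of this Th2 difference in the results below was not tested. WT replicate 1 stood apart among the WT libraries: it held the highest WT value for 24 of the 37 genes (64.9%), against 38.4% of all genes tested.

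Across the set, the lowest fitted values belonged to the sterol exporters Abca1 (-1.14 on the log2 scale, Ikzf4-/- over WT) and Abcg1 (-0.66) and the fatty acid desaturases Scd1 (-0.99), Fads2 (-0.73) and Scd2 (-0.49). Those of the 18 sterol arm enzymes lay between -0.32 and 0.15, and those of the chain-building enzymes Acaca and Fasn at -0.03 and -0.06. A limma fit over all 14864 genes that passed the filter called 2 of the 37 genes at an adjusted p under 0.05, Scd2 and Srebf1, both lower in Ikzf4-/- cells. That is 5.41%, where 1.77% of all genes tested were called, and 1.2% were called as lower. In bulk RNA, fewer cells of a type and less RNA per cell cannot be told apart. For 16 of the 37 genes (43.2%) each Ikzf4-/- value lay below each WT value, a pattern found in 12.2% of all genes tested. In the other direction it was 3 genes (8.11%), against 11% of all genes. The fitted log2 fold change (Ikzf4-/- over WT, of values plus 1) was below 0 for 32 of the 37 genes, and its median was -0.14, against 0.00 over all genes. An unadjusted p under 0.05 was reached by 19 of the 37 genes (51.4%), against 18.1% of all genes tested. Because the 37 genes were chosen with earlier results known, these shares are descriptive and carry no test.

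**Figure D1:**
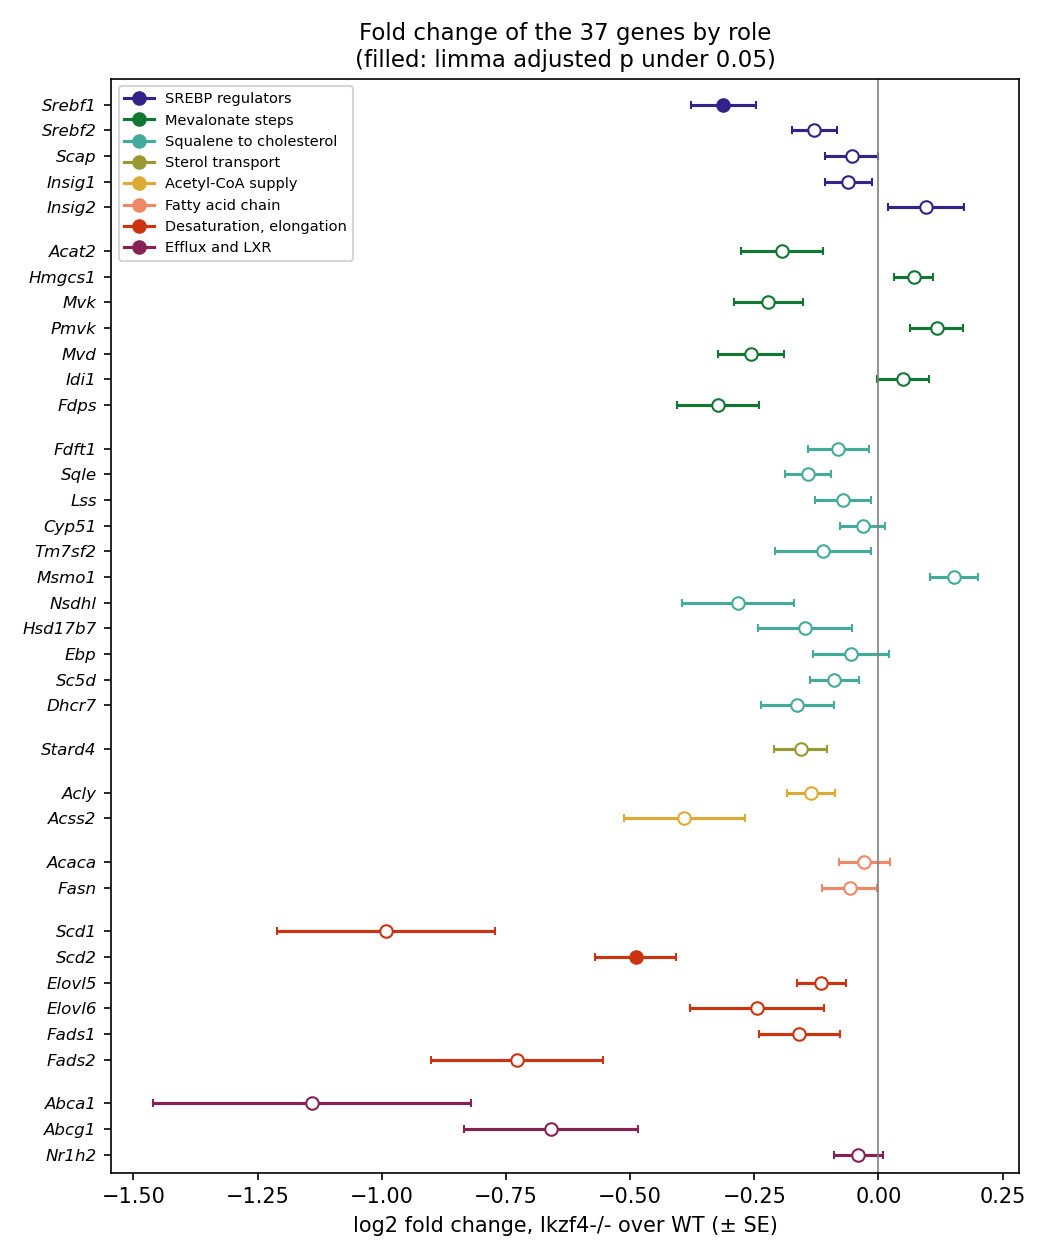
Log2 fold change (Ikzf4-/- over WT, x axis) of each of the 37 genes, with bars for the standard error, in colours by role. Filled points are the 2 genes called by limma, Srebf1 and Scd2. Abca1, Scd1, Fads2, Abcg1 and Scd2 lie farthest to the left, and 5 genes lie right of 0.

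**Figure D2:**
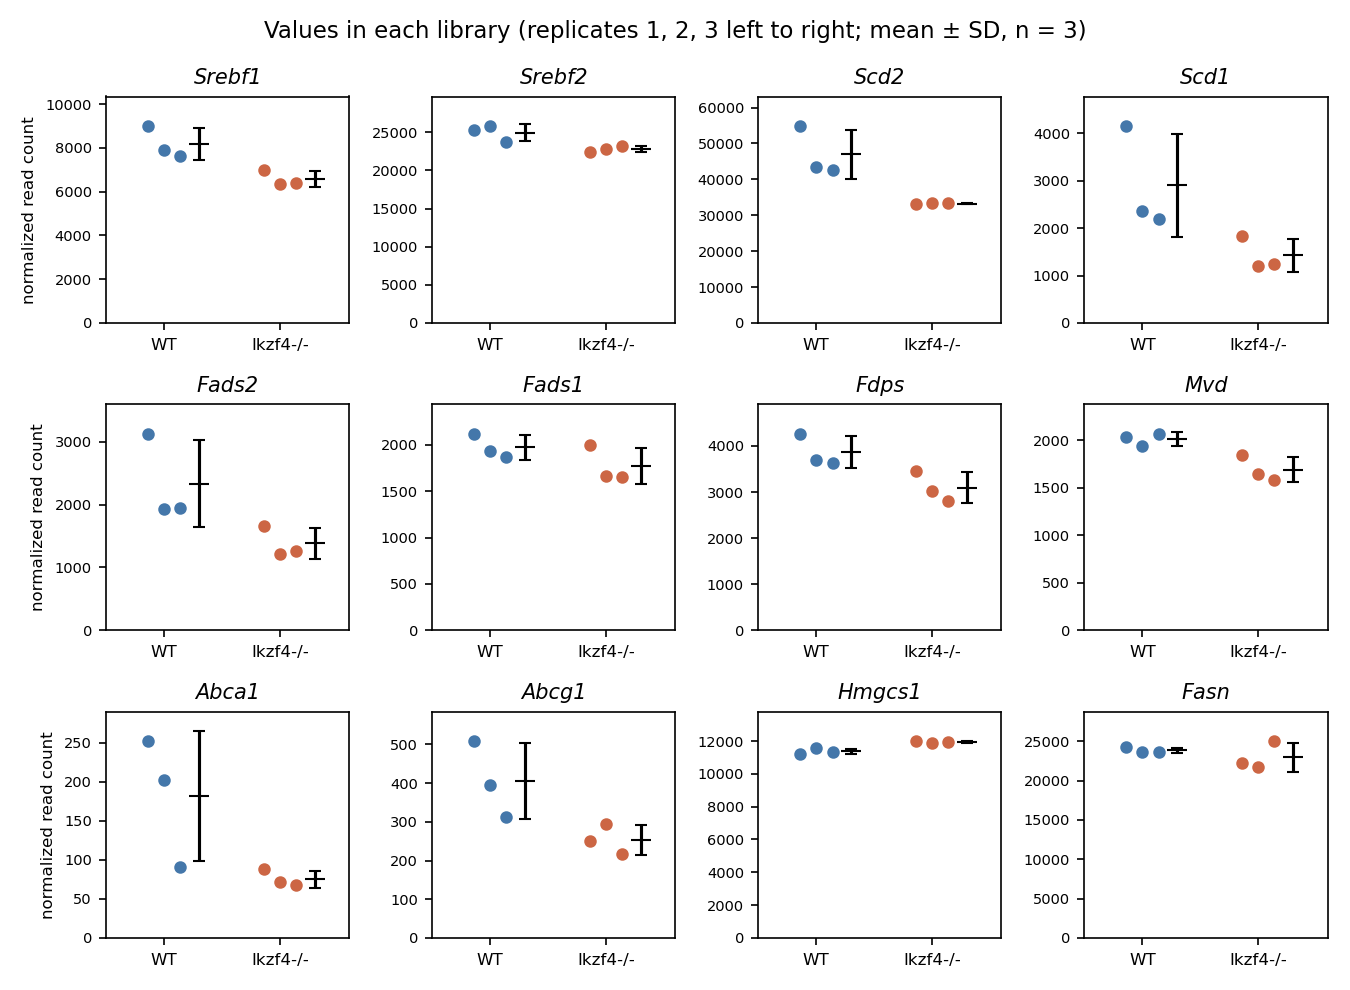
Normalized read counts of 12 genes in each library, with WT replicates 1 to 3 in blue, Ikzf4-/- replicates 1 to 3 in orange, and the mean ± SD (n = 3) in black, all on axes from 0. The groups do not overlap in 10 panels, with Hmgcs1 the only one of these 10 that is higher in Ikzf4-/- libraries, while in Fads1 and Fasn they do overlap.

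Among the regulators, Srebf1, the gene of SREBP-1, was at 8996, 7922 and 7618 for WT against 6986, 6363 and 6373 for Ikzf4-/-. Every Ikzf4-/- value lay below every WT value, and within each genotype replicate 1 was the highest. Srebf1 fell from 8179 ± 724 to 6574 ± 357 (SD, 3 libraries each), with a fitted difference of -0.31 log2 units (SE 0.07, limma adjusted p = 0.0437). Its call rested on all 3 Ikzf4-/- libraries: the limma adjusted p was 0.0706, 0.145 and 0.157 without Ikzf4-/- replicate 1, 2 and 3, and 0.0833 without WT replicate 2. The authors' deposited table gives Srebf1 the same fold change and an adjusted p of 0.000524. The gene (ENSMUSG00000020538, chromosome 11, 60199089 to 60222581 of GRCm38, minus strand) has alternative first exons that give SREBP-1a and SREBP-1c, and counts per gene do not separate them.

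Srebf2, the gene of SREBP-2, was at 25321, 25827 and 23778 for WT against 22448, 22805 and 23221 for Ikzf4-/-. Its groups did not overlap either, but the step between them was small: a fitted difference of -0.13 log2 units (SE 0.04, limma adjusted p = 0.162). Per kilobase of annotated exon, Srebf2 stood at 3477 normalized reads in WT and 3177 in Ikzf4-/- libraries, above Srebf1 at 1452 and 1167. Scap, the escort protein, had a fitted value of -0.05 (limma adjusted p = 0.652). The retention proteins Insig1 and Insig2 overlapped between the groups. Insig1 was at 5681, 5480.2 and 5399.9 for WT against 5077, 5494 and 5313 for Ikzf4-/-, a fitted difference of -0.06 log2 units (SE 0.05, limma adjusted p = 0.553). Insig2 was at 957, 941 and 1004 for WT against 934, 1085 and 1088 for Ikzf4-/-, with Ikzf4-/- replicate 1 below all WT values and the other Ikzf4-/- libraries above them, a fitted difference of 0.10 log2 units (SE 0.08, limma adjusted p = 0.564). Thus of the 5 regulators, 1 was called.

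The promoter windows of the genes were examined for the elements that LXR and SREBP are known to bind. RefSeq windows on GRCm38.p6, from 250 bases before to 50 after an annotated start, were found for 29 of the 37 genes. The 8 genes without a window were Abcg1, Fads1, Fdft1, Fdps, Scd1, Scd2, Sqle and Stard4. These 8, which include the called gene Scd2, were not searched. A relaxed form of the DR4 repeat bound by LXR, with the letters GGTNA followed after 5 bases of any kind by GGTCA, or its reverse complement, occurred in 68 of 32851 windows (0.207%). Of the 29 genes, 3 had a window that held them (Abca1, Srebf1 and Fasn), against 0.226% of all genes with a window. The letters TCACNCCAC, a form of the sterol regulatory element (SRE), occurred on either strand in 1.24% of windows. They were found for 1 of the 29 genes, Hmgcs1, against 1.44% of all genes with a window. Other forms of the element were not searched, so a gene without a match is not shown to lack one. The 4 windows shown are all those among the 29 genes that held either set of letters. They belong to the exporter with the lowest fitted value, the called regulator Srebf1 and 2 synthesis genes that were not called. They read 5′ to 3′ on the gene's strand, with the matched letters in capitals.
Abca1: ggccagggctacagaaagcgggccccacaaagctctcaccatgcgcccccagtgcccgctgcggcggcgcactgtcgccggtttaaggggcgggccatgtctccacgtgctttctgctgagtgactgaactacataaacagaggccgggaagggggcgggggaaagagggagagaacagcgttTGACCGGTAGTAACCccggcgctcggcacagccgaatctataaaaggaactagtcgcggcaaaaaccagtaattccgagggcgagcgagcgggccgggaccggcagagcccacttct
Srebf1: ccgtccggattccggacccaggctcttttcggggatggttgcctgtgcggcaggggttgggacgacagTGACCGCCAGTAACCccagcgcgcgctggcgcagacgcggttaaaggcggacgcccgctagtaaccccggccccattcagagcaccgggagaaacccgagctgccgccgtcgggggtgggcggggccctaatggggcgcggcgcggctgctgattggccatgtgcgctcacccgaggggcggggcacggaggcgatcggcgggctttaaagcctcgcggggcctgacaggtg
Fasn: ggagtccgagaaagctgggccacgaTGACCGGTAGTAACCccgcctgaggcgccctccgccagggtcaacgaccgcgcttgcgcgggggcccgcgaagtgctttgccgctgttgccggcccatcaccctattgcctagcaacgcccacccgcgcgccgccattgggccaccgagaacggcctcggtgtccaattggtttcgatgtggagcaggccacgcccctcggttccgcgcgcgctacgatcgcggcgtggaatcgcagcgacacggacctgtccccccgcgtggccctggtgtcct
Hmgcs1: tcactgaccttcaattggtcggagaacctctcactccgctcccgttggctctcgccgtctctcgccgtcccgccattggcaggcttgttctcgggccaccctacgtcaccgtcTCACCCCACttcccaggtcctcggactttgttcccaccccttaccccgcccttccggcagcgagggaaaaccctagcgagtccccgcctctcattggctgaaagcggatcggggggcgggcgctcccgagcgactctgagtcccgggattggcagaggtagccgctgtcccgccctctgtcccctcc
The windows lie at chr4:53159846-53160145 (minus strand) for Abca1, chr11:60210422-60210721 (minus strand) for Srebf1, chr11:120824498-120824797 (minus strand) for Fasn and chr13:119690101-119690400 (plus strand) for Hmgcs1. The Srebf1 window is that of the most downstream of its 3 starts. The first capital lies at -67 in Abca1, -182 in Srebf1, -225 in Fasn and -137 in Hmgcs1, counted in bases from the start. The DR4 match read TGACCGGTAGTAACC in both Abca1 and Fasn and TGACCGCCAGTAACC in Srebf1, in each case on the opposite strand to the gene. A match is a description of the letters and not a measured binding site. The shorter CCAAT letters occurred in the windows of 14 of 15 sterol arm genes and 4 of 7 fatty acid arm genes that had one, against 41.1% of all genes, and GGGCGG in 14 of 15 and 3 of 7, against 38.2%, each on either strand.

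Abca1 and Abcg1 are the sterol exporters with LXR as their known activator. Abca1 (ENSMUSG00000015243, chromosome 4, 53030787 to 53159895 of GRCm38, minus strand), which moves cholesterol onto lipid-poor apolipoprotein, was at 252, 202 and 90.3 for WT against 87.8, 71.2 and 67.3 for Ikzf4-/-. WT replicate 3 lay close to the Ikzf4-/- libraries, so the groups were separated by little. Abca1 had means of 182 ± 83.0 and 75.4 ± 10.9 (SD, 3 libraries each), a fitted difference of -1.14 log2 units (SE 0.32, limma adjusted p = 0.0946), and was not called. Without WT replicate 3 its log2 fold change was -1.58 (limma adjusted p = 0.00843) and without WT replicate 1 it was -0.84 (limma adjusted p = 0.205). Over all alternatives but the authors' deposited table, the adjusted p of Abca1 ran from 0.00843 to 0.251.

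Abcg1 (ENSMUSG00000024030, chromosome 17, 31057675 to 31117988 of GRCm38, plus strand), which exports sterol to mature lipoprotein particles, was at 509, 396 and 313 for WT against 251, 294 and 216 for Ikzf4-/-. Its values did not overlap, and the order of replicates differed between the genotypes. Means of 406 ± 98.1 and 254 ± 39.2 (SD, 3 libraries each) gave a fitted difference of -0.66 log2 units (SE 0.17, limma adjusted p = 0.0836). Both exporters passed in the authors' deposited table, Abca1 at an adjusted p of 0.00127 and Abcg1 at 0.00480. Nr1h2, which encodes LXR beta, had a fitted value of -0.04 (limma adjusted p = 0.729), with 95% limits of -0.15 and 0.07. Per kilobase of exon, Abca1 and Abcg1 were among the lowest of the 37 genes, at 17.5 and 55.7 in WT and 7.28 and 34.8 in Ikzf4-/- libraries. Macrophages are rich in both exporters. Of 6 myeloid markers 5 had no row, and Cd68 was at 59.6 to 96.1 in WT and 69.3 to 89.0 in Ikzf4-/- libraries. Whether such cells contributed to the exporter values was not tested.

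The fatty acid arm begins with the supply of acetyl-CoA. Acly, which splits citrate, was at 17363, 16659.8 and 15558 for WT against 14782, 15251 and 15036 for Ikzf4-/-. The groups did not overlap, at a fitted difference of -0.14 log2 units (SE 0.05, limma adjusted p = 0.169). Acss2, which makes acetyl-CoA from acetate, was at 477, 398 and 354 for WT against 305, 327 and 299 for Ikzf4-/-, and again every Ikzf4-/- value was the lower one. This gave a fitted difference of -0.39 log2 units (SE 0.12, limma adjusted p = 0.125), so neither supply gene was called.

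The chain-building steps did not separate. Acaca, the carboxylase that makes malonyl-CoA, was at 5287, 5261 and 5327 for WT against 5021, 5005 and 5556 for Ikzf4-/-. Fasn, the fatty acid synthase, was at 24247, 23651 and 23654 for WT against 22191, 21674 and 25032 for Ikzf4-/-. In both genes Ikzf4-/- replicate 3 was the highest library of all and the other 2 Ikzf4-/- libraries were the lowest. Acaca had a fitted difference of -0.03 log2 units (SE 0.05, limma adjusted p = 0.823) with 95% limits of -0.14 and 0.08, and Fasn a fitted difference of -0.06 log2 units (SE 0.06, limma adjusted p = 0.641) with limits of -0.18 and 0.06.

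The only called gene of the arm was a desaturase. Scd2, one of the stearoyl-CoA desaturases that turn saturated into monounsaturated fatty acids, had the highest level per kilobase of exon of the 37 genes, at 8595 in WT and 6084 in Ikzf4-/- libraries. Its counts were 54842, 43367 and 42672 for WT against 33005, 33365 and 33362 for Ikzf4-/-. The Ikzf4-/- values were nearly equal, and the WT values were spread by WT replicate 1, yet each lay above them. Scd2 fell by 28.7%, from 46960.4 ± 6835 to 33244 ± 207 (SD, 3 libraries each), a fitted difference of -0.49 log2 units (SE 0.08, limma adjusted p = 0.0237). Without WT replicate 1 the log2 fold change was -0.37 and the limma adjusted p was 0.00150. Leaving out Ikzf4-/- replicate 1, 2 or 3 gave limma adjusted p-values of 0.0712, 0.0641 and 0.0933. The gene (ENSMUSG00000025203) had an adjusted p of 1.11e-07 in the authors' deposited table.

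Scd1, the paralog of Scd2, was at 4153, 2369 and 2191 for WT against 1834, 1196 and 1251 for Ikzf4-/-. Replicate 1 was the highest in each genotype, and the groups did not overlap. Means of 2905 ± 1085 and 1427 ± 354 (SD, 3 libraries each) gave a fitted difference of -0.99 log2 units (SE 0.22, limma adjusted p = 0.0511), just above the threshold. Scd1 was called without WT replicate 1, at a fitted difference of -0.70 (limma adjusted p = 0.0225), without WT replicate 3 (0.0246), with a pseudocount of 10 (0.0476) and with array weights (0.0227). A fit that adds the replicate number as a block is given with the other alternatives at the end. Its limma adjusted p ran from 0.0225 to 0.178 with 1 library left out, and it was 0.0770 in the authors' deposited table. Scd1 and Scd2 lie 87590 bp apart on chromosome 19, at 44394455 to 44407879 (minus strand) and 44293674 to 44306864 (plus strand) of GRCm38. How reads shared by such paralogs were counted is not stated.

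Fads2, the delta-6 desaturase of polyunsaturated fatty acids, was at 3129, 1923 and 1948 for WT against 1667, 1219.6 and 1267 for Ikzf4-/-. It showed the pattern of Scd1, with replicate 1 highest in each genotype and no overlap, at means of 2333 ± 689 and 1384 ± 246 (SD, 3 libraries each) and a fitted difference of -0.73 log2 units (SE 0.17, limma adjusted p = 0.0616). Without WT replicate 1 its log2 fold change was -0.50 (limma adjusted p = 0.0371). Fads1, the delta-5 desaturase, lies 81141 bp from Fads2 on chromosome 19 and was at 2121, 1932 and 1864 for WT against 1994, 1667 and 1649.6 for Ikzf4-/-. Here Ikzf4-/- replicate 1 lay inside the WT range, and the gene had a fitted difference of -0.16 log2 units (SE 0.08, limma adjusted p = 0.333).

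Neither elongase was called. Elovl5, which lengthens polyunsaturated chains, was at 3789.8, 3690.3 and 3516 for WT against 3450.0, 3281 and 3421 for Ikzf4-/-, without overlap, with a fitted difference of -0.11 log2 units (SE 0.05, limma adjusted p = 0.255). Elovl6, which lengthens saturated and monounsaturated chains, was at 2706, 1943 and 1767 for WT against 1992, 1684 and 1665 for Ikzf4-/-. WT replicate 1 stood well above the other 5 libraries, which overlapped, and the fitted difference was -0.24 log2 units (SE 0.13, limma adjusted p = 0.372). Without WT replicate 1 the value of Elovl6 was -0.06 (limma adjusted p = 0.806), and without WT replicate 3 it was -0.37. For all 6 desaturases and elongases WT replicate 1 was the highest WT library.

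In the sterol arm, no gene of 18 was called. The fitted values were below 0 for 14 and above 0 for 4, and an unadjusted p under 0.05 was reached by 8 (18.1% of all genes tested did). The groups did not overlap for 5 genes lower and 3 genes higher in Ikzf4-/- cells, where 12.2% and 11% of all genes tested showed these patterns. By the authors' deposited table, Mvd (adjusted p = 0.0242) and Fdps (0.00562) passed 0.05 among the 18. Of all 37 genes 6 passed there (16.2%), each lower in Ikzf4-/- cells, where 6.34% of the genes with such a value passed, and 3.89% as lower.

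Of the mevalonate steps, Fdps, which joins isoprene units into farnesyl diphosphate, was at 4269.9, 3698 and 3640.4 for WT against 3459, 3023 and 2808 for Ikzf4-/-. Each group was highest in replicate 1 and the groups did not overlap, at a fitted difference of -0.32 log2 units (SE 0.08, limma adjusted p = 0.0767). Of its annotated exon bases 26.7% are shared with Gm43738, a gene model on the same strand, so that part of its count is uncertain. Mvd, the decarboxylase that makes isopentenyl diphosphate, was at 2036, 1933 and 2068 for WT against 1838, 1641 and 1584 for Ikzf4-/-, a fitted difference of -0.26 log2 units (SE 0.07, limma adjusted p = 0.0798). Mvk, mevalonate kinase, was at 1375, 1333 and 1226 for WT against 1142, 1168 and 1062 for Ikzf4-/-, a fitted difference of -0.22 log2 units (SE 0.07, limma adjusted p = 0.128). These 3 genes had lower values in every Ikzf4-/- library. Acat2, which condenses acetyl-CoA at the start of the route, had a fitted value of -0.19 (limma adjusted p = 0.244) with overlapping groups, and -0.11 without WT replicate 1.

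The other mevalonate steps lay on the opposite side of 0. Hmgcs1, the synthase of HMG-CoA, was at 11219, 11554 and 11354 for WT against 12003, 11895 and 11945 for Ikzf4-/-. Although each Ikzf4-/- value was the higher one, the fitted difference was only 0.07 log2 units (SE 0.04, limma adjusted p = 0.377), with 95% limits of -0.02 and 0.16. Pmvk, phosphomevalonate kinase, was at 2885, 3011 and 3069.7 for WT against 3391, 3229 and 3107 for Ikzf4-/-, a fitted difference of 0.12 log2 units (SE 0.05, limma adjusted p = 0.272). Idi1, the isomerase of isopentenyl diphosphate, had a fitted value of 0.05 (limma adjusted p = 0.682). The kinases Mvk and Pmvk, which act in direct succession, thus had fitted values of opposite sign, though neither was called and the difference was not tested.

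From squalene on, Sqle, the epoxidase that sets the pace of this stretch, was at 6335, 6411 and 5914 for WT against 5615, 5619.8 and 5678 for Ikzf4-/-. The Ikzf4-/- values were tightly grouped below the WT values, at a fitted difference of -0.14 log2 units (SE 0.05, limma adjusted p = 0.142). Sc5d, a desaturase of the sterol ring, was at 2503, 2524 and 2617 for WT against 2442, 2349 and 2397 for Ikzf4-/-, a fitted difference of -0.09 log2 units (SE 0.05, limma adjusted p = 0.380), again without overlap. Msmo1, which removes methyl groups at carbon 4, was at 2829.6, 2959 and 2782 for WT against 3166, 3159.6 and 3195 for Ikzf4-/-. It was the only gene of this stretch with a positive fitted value, a fitted difference of 0.15 log2 units (SE 0.05, limma adjusted p = 0.130). Nsdhl, its partner in the same demethylation, had the lowest fitted value of the stretch, -0.28 (limma adjusted p = 0.215), with 1822 in WT replicate 1 and 1324 to 1359 in the other WT libraries. Without WT replicate 1 it was -0.13 (0.478 by limma), and Tm7sf2 was then lower, at -0.16.

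The remaining steps of the stretch overlapped between the genotypes. Dhcr7, the last reductase, had a fitted value of -0.16 (limma adjusted p = 0.280). Hsd17b7, a sterol ketoreductase, had -0.15 (0.452), and -0.05 without WT replicate 1. Tm7sf2, a sterol reductase, had -0.11 (0.593) and Fdft1, squalene synthase, -0.08 (0.544). Lss, the cyclase that makes lanosterol, had -0.07 (0.553), Ebp, a sterol isomerase, -0.05 (0.763) and Cyp51, the lanosterol demethylase, -0.03 (0.769). Of the exon bases of Fdft1, 18.3% overlap those of Ctsb on the opposite strand, and Scap, Hmgcs1 and Idi1 overlap opposite-strand gene models in 13.2%, 12.1% and 9.22% of theirs. Whether the counting used strand is not stated. Tm7sf2 shares 12.1% of its exon bases with Vps51 on the same strand. Stard4, a carrier that moves sterol between membranes, was at 6865, 6769.6 and 7033 for WT against 5774, 6604 and 6187 for Ikzf4-/-. Its groups did not overlap, with a fitted difference of -0.16 log2 units (SE 0.05, limma adjusted p = 0.156).

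Set side by side, the fatty acid arm had 10 of 10 fitted values below 0 and the sterol arm 14 of 18, against 48.7% of all genes tested. The median log2 fold change was -0.20 and -0.10, respectively. Lower without overlap were 6 and 5 genes (60% and 27.8%, against 12.2% of all genes tested). Higher without overlap were 0 and 3 genes (0% and 16.7%, against 11%). An unadjusted limma p under 0.05 was reached by 6 and 8 genes (60% and 44.4%, against 18.1%). Averaged on the log2 scale and set to a WT mean of 0, the fatty acid arm stood at 0.21, -0.07 and -0.14 in WT replicates 1 to 3 and at -0.24, -0.40 and -0.36 in Ikzf4-/- replicates 1 to 3. The sterol arm stood at 0.06, -0.03 and -0.03 in WT and at -0.05, -0.11 and -0.14 in Ikzf4-/- libraries. In both arms replicate 1 was the highest library of its genotype. The mean difference was -0.33 for the fatty acid arm and -0.10 for the sterol arm, and -0.23 and -0.07 without WT replicate 1. The medians without WT replicate 1 were -0.10 and -0.08, closer together than with that library, while the mean differences stayed apart. The part of WT replicate 1 in these differences was otherwise not tested, nor was the difference between the arms. The 37 genes had 4, 1 and 6 calls without WT replicate 1, 2 and 3 (1.82%, 0.508% and 3.53% of all genes tested were then called), and 0 calls without any 1 Ikzf4-/- library (0.325%, 0.757% and 0.135%). Within the fatty acid arm the 6 desaturases and elongases had a median of -0.37, against -0.04 for Acaca and Fasn. No gene lay near that median: Scd1 (-0.99), Fads2 (-0.73) and Scd2 (-0.49) were below it. Elovl6 (-0.24), Fads1 (-0.16) and Elovl5 (-0.11) were above it, within the sterol arm's range of -0.32 to 0.15. The mean difference of the 6 genes was -0.45, and -0.31 without WT replicate 1.

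**Figure D3:**
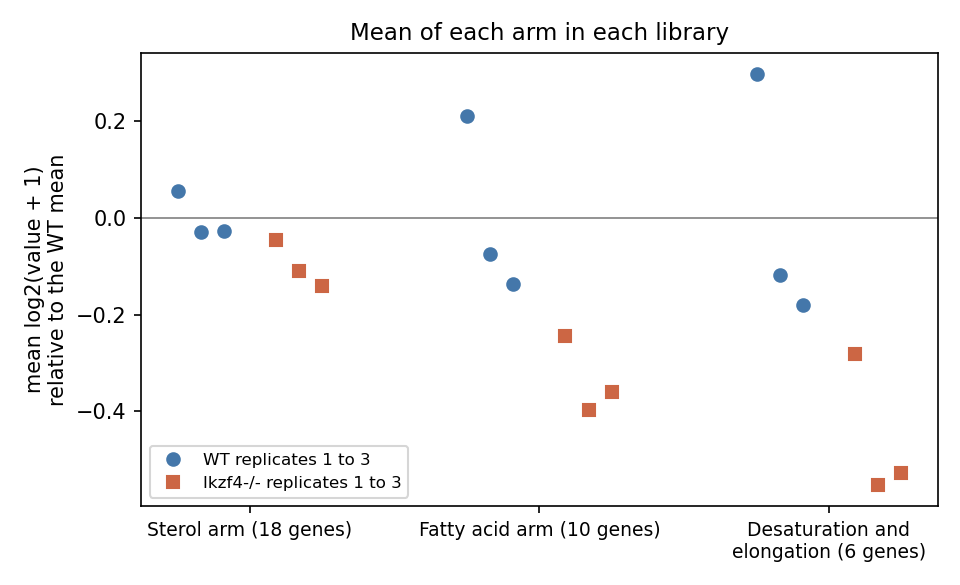
Mean log2(value + 1) of the sterol arm, the fatty acid arm and its desaturases and elongases in each library, relative to the mean of the WT libraries. WT replicate 1 is the highest point in each column, and the 3 Ikzf4-/- libraries lie below the WT libraries by more in the fatty acid arm than in the sterol arm.

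**Figure D4:**
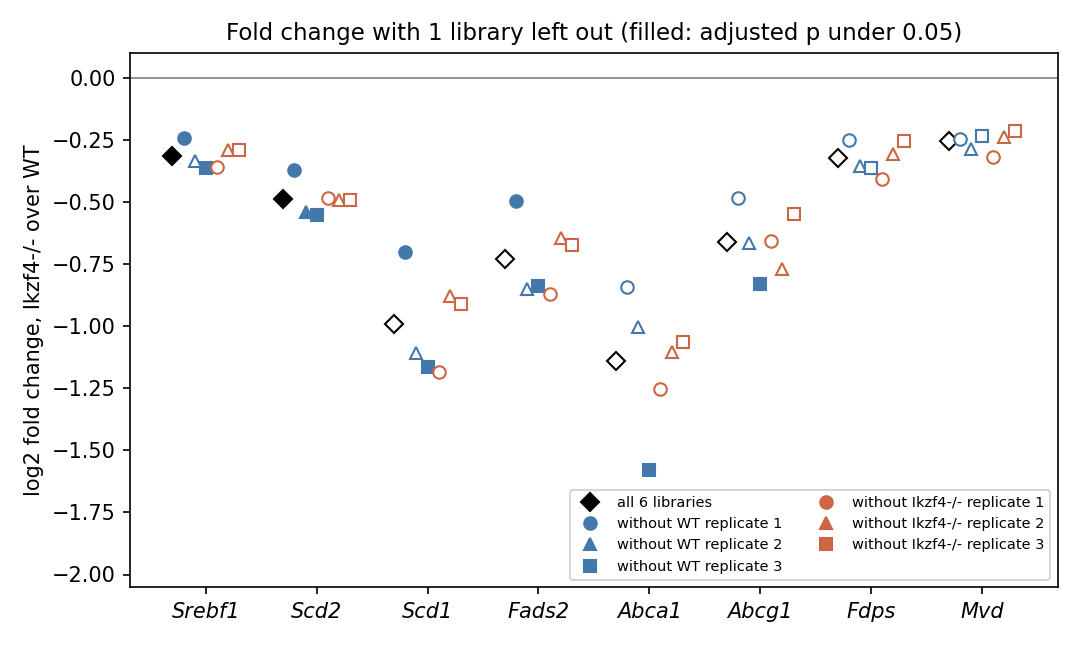
Log2 fold change of 8 genes with all 6 libraries (black) and with 1 library left out (blue for a WT, orange for an Ikzf4-/- library), filled where the limma adjusted p is under 0.05. All points lie below 0. Scd2 and Srebf1 lose their call without any of the Ikzf4-/- libraries, and Abca1 and Abcg1 are called only without WT replicate 3.

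Other lipid genes, taken from lists written from textbook knowledge, numbered 93, and 3 of them were called (3.23%, against 1.77% of all genes tested). Acadm, the medium-chain dehydrogenase of fatty acid oxidation, rose from 1763 ± 75.7 to 2215 ± 61.9 (SD, 3 libraries each), a fitted difference of 0.33 log2 units (SE 0.06, limma adjusted p = 0.0249). Its values were 1726, 1713 and 1849.8 for WT against 2247, 2144 and 2255 for Ikzf4-/-, without overlap. The other 15 genes of the oxidation list were not called, and the list's median log2 fold change was 0.00. Mid1ip1, which promotes assembly of acetyl-CoA carboxylase, was at 3231, 3285 and 3203 for WT against 2825, 2757 and 2723 for Ikzf4-/-. It fell from 3239.5 ± 41.9 to 2768 ± 52.0 (SD, 3 libraries each), a fitted difference of -0.23 log2 units (SE 0.05, limma adjusted p = 0.0435), and was not called when libraries were scaled to equal totals (0.0652). It was the only called gene of 16 on a list of further fatty acid synthesis genes, whose median was -0.10.

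Gramd1b, which carries plasma membrane cholesterol to the endoplasmic reticulum, was at 12772, 18481 and 18642 for WT against 24045, 24587 and 24602 for Ikzf4-/-. WT replicate 1 was the lowest library here, and the Ikzf4-/- values were nearly equal. The gene rose from 16632 ± 3343 to 24411 ± 317 (SD, 3 libraries each), a fitted difference of 0.57 log2 units (SE 0.12, limma adjusted p = 0.0407), and without WT replicate 1 the log2 fold change was 0.40 (limma adjusted p = 0.000955). It was 1 of 12 genes on the list of sterol trafficking and esterification, of which no other was called (median 0.00). Lrp8, a lipoprotein receptor of the same list, was at 1338, 1117 and 1051 for WT against 939, 763 and 873 for Ikzf4-/-, without overlap, with a fitted difference of -0.44 log2 units (SE 0.10, limma adjusted p = 0.0595) and an adjusted p of 0.00221 in the authors' deposited table. No gene was called among 12 of SREBP processing and turnover (median -0.05), 15 of the isoprenoid branch (0.00), 8 LXR partners and targets (-0.05) and 14 of glycerolipid synthesis (-0.07). An unadjusted limma p under 0.05 was reached in these 4 lists by 2, 1, 2 and 2 genes, and by 6 of 12 genes (50%) of sterol trafficking and esterification, 5 of 16 (31.2%) of further fatty acid synthesis and 1 of 16 of fatty acid oxidation, against 18.1% of all genes tested. In the 4 lists without a call, the authors' deposited table gave an adjusted p under 0.05 to 0, 0, 1 and 0 genes. The 1 was Lpcat3, a phospholipid acyltransferase, at 0.0191. Of all genes with such a value, 6.34% passed there. Without any 1 of the Ikzf4-/- libraries, neither Mid1ip1 nor Gramd1b was called, and Acadm was called only without Ikzf4-/- replicate 2 (0.0499). Without WT replicate 2 none of the 3 was called, and Mid1ip1 was not called without WT replicate 1 (0.0515).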

How the data were processed

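RNA-seq libraries of 3 WT and 3 Ikzf4-/- samples were compared. The authors deposited 1 table with normalized read counts per gene, a signal in which the values of each library are whole multiples (within 0.01) of 1 read divided by a factor, beside their log2 fold change, p-value and adjusted p-value of the genotype comparison. Per the submitters' processing notes, Trimmomatic 0.36, STAR 2.5.2b and DESeq2 were used with GRCm38 (mm10). How reads were assigned to genes, and whether by strand, is not given in the sources used here.

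Genes whose 6 libraries averaged under 10 were left out. The values were taken as log2(value + 1), so that differences of low genes are understated, and fitted with limma 3.58.1 (R 4.3.3, trend on the mean, genotype as the only term). Two-sided p-values received the Benjamini-Hochberg adjustment across the 14864 genes left, and genes were called under 0.05. The code was tested on simulated data. Medians of gene groups carry no test. Levels per kilobase divide the mean normalized count by the union of annotated GENCODE exons. The 37 genes, the other lipid lists and the marker lists were chosen with earlier results of these data known. Every one of the 37 is named. All 6 values are given for genes that were called, genes whose groups did not overlap, paired family members and the pace-setting steps, and of the other lists each called gene is named. Lpcat3 and Lrp8 were named after their values were seen. Alternatives were another scaling, filter, pseudocount, weighting or threshold, the replicate number as a block, each library left out, and the authors' own comparison.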

Additional observations from a re-analysis of the deposited data

How the results depend on the processing

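The counts of calls moved with the processing, the directions of the 37 genes little. Of the 37 genes, 2 were called in the limma fit, 3 with a pseudocount of 10, 6 with array weights (Srebf1, Scd2, Scd1, Fads2, Fdps and Abca1; 482 of all genes tested, against 263), 6 in the authors' deposited comparison (815), 0 at a threshold of 0.01 (16) and 0 to 6 with 1 library left out (20 to 523). Of the 93 other lipid genes 3 were called (3.23%, against 1.77% of all genes tested). In the authors' deposited comparison 5 were (5.49% of those with such a value, against 6.34% of all genes with one). It was 0 at a threshold of 0.01 (16 of all genes) and 0 to 7 with 1 library left out (20 to 523 of all genes). The 7 were found without WT replicate 3 (3.53% of all genes tested). The 0 came without WT replicate 2 (0.508%) or Ikzf4-/- replicate 1 (0.325%) or 3 (0.135%). With the replicate number as a block, 8 of the 37, 754 of all genes and 6 of the 93 were called, the 8 being Srebf1, Scd2, Scd1 (limma adjusted p = 0.000295), Fads2 (0.00101), Fdps (0.00719), Abcg1 (0.0231), Abca1 (0.0245) and Mvd (0.0446). Deviations of same-numbered libraries correlated at 0.15, 0.01 and 0.14, not all above the 0.1 asked of each pair, so the numbers are not shown to make the libraries paired. Ikzf4-/- replicate 1 was the highest Ikzf4-/- library for 51.4% of the 37 genes, against 35.2% of all genes tested. The sterol arm median, -0.10, was -0.19 for the mevalonate steps alone, and ran from -0.12 to -0.08 with 1 library left out. That of the fatty acid arm ran from -0.29 to -0.10. The fitted value of Ebp turned to 0.013 without Ikzf4-/- replicate 3 (range -0.12 to 0.013). It was the only reversal among the 37 genes and the 3 called other lipid genes. Some uncalled genes of the 93 also changed sign with 1 library left out, such as Rnf139 (-0.12 to 0.005) and Mbtps2 (-0.02 to 0.14). The causes were not tested. Scaling to equal totals gave 154 lower and 115 higher calls, against 178 and 85. Count-based tests were planned only if a recovery of whole reads was accepted in all 6 libraries, and were not run: the values were whole multiples within 0.01 in each library, but in 2 Ikzf4-/- libraries 1 read was worth too nearly 1 for the recovery to be accepted. Of the 37 genes Abca1 had the fewest reads.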
